A study of Mus musculus with 18 samples.

Results

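Ptch1 and 9 other core genes of the Hedgehog pathway (Smo, Sufu, Cdon, Spop, Shh, Dhh, Gli1, Gli2 and Gli3) were followed across Affymetrix arrays of mouse splenic CD4 T cells. The members were all probe sets whose platform annotation gives 1 of these 10 symbols and no other, which gave 24 probe sets for 10 genes out of 34945 probe sets for 18193 genes. Every gene had at least 1 probe set. The groups were stimulated Gli2A Tg, stimulated Gli2R Tg, stimulated WT, resting Gli2A Tg, resting Gli2R Tg and resting WT, with 3 arrays each and 18 in all. Tg stands for transgenic and WT for wild type, and the names Gli2A and Gli2R are used for forms of the transcription factor Gli2 that activate or repress its targets. All mice were on the C57BL/6 background and 9 to 15 weeks old, and CD4 cells were purified from their spleens with magnetic beads. Resting cells were taken fresh and stimulated cells after 6 h of culture with anti-CD3 and anti-CD28 antibodies, so that what is called stimulation here also covers the culture. The labels give neither the promoter that drives the transgenes nor the part of Gli2 that they hold, and they do not tell whether replicates of a group were separate mice or pools. P-values therefore measure only the spread between these arrays.

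Hedgehog signalling starts when a secreted ligand such as Sonic (Shh) or Desert hedgehog (Dhh) binds the membrane receptor Ptch1, helped by co-receptors such as Cdon. Unbound Ptch1 keeps the membrane protein Smo inactive, and ligand relieves this block. Active Smo frees the Gli transcription factors from Sufu, which holds them in the cytoplasm. The adaptor Spop directs Gli2 and Gli3 to degradation. Gli2 and Gli3 can act as activators or, after processing, as repressors, and Gli1 and Ptch1 are themselves textbook Gli target genes. In T cells the pathway has been studied mainly in the thymus, where it acts on early progenitors.

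Levels below are log2 of the deposited intensity plus 16, quantile normalized, and differences are on the same scale. The number added compresses differences between dim signals. Array medians lay between 55.5 and 76.3 on the intensity scale, and precision is limited by 3 arrays a group. Mean levels over the 34945 probe sets had a lower quartile of 5.22, a median of 6.62 and an upper quartile of 9.01, which serve only to show how near a probe set lies to the bottom of the scale. The CD4 T cell markers were present on all arrays, with none of 8 below the lower quartile in any group. Markers of other cells were present as well. The summed intensity of 12 macrophage and myeloid markers was 1902 to 5135 on stimulated Gli2A Tg, 1099 to 1554 on stimulated Gli2R Tg and 1163 to 1823 on stimulated WT arrays. On resting arrays it was 120128 to 133265 in Gli2A Tg, 55294 to 67600 in Gli2R Tg and 69832 to 103464 in WT cells, so that the resting Gli2A Tg arrays lay above all other resting arrays. The 7 erythroid markers summed to 22688 to 62006 on resting Gli2A Tg, 4446 to 9535 on resting Gli2R Tg and 19117 to 29132 on resting WT arrays. Sex-linked genes gave a male pattern on 2 of 3 stimulated Gli2R Tg, 1 of 3 stimulated WT and 2 of 3 resting WT arrays and on 0 of 3 arrays of each other group. In such bulk samples, fewer cells of a type and less RNA per cell cannot be told apart.

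Ptch1 is the Hedgehog receptor and a Gli target, and its promoter is printed because Ptch1 gave the largest genotype difference among the members. Sequences are 250 bases upstream of the RefSeq start in GRCm38.p6, written 5′ to 3′ on the gene's strand, and capitals mark a match with at most 1 mismatch to the 9-base Gli consensus GACCACCCA, searched on both strands as GACCACCCA and TGGGTGGTC. Slc27a2, a fatty acid transporter, is shown beside it as the gene whose levels were most like those of Ptch1. The Ptch1 window is chr13:63565736-63565985 on the minus strand and starts inside the annotated gene, and the Slc27a2 window is chr2:126552774-126553023 on the plus strand.
Ptch1: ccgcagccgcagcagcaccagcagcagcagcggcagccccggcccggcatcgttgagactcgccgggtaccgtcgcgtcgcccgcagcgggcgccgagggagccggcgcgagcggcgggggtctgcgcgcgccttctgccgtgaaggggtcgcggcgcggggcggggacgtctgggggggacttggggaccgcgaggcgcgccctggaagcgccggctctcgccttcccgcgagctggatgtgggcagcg
Slc27a2: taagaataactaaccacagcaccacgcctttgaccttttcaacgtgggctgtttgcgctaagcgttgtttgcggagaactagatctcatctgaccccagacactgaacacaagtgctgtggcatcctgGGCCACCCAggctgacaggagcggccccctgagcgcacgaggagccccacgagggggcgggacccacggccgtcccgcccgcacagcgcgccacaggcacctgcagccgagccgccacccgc
No match stood in the Ptch1 window, and the match in the Slc27a2 window reads GGCCACCCA and starts 122 bases upstream of the start. Windows reaching 50 bases past the start were searched for 8 of the 10 members, and 0 of 8 held the consensus, exactly or with 1 mismatch. Like that of Ptch1, the Cdon and Gli2 windows lie inside the annotated gene and not at its outer end. Of all 32851 promoter windows, 0.253% held an exact match and 6.74% a match with at most 1 mismatch. A match is a description of letters and no evidence of binding, and no match says only that these letters are not in the window.

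Ptch1 was higher in Gli2A Tg cells than in both other genotypes, 8.68-fold over WT at rest and 4.35-fold over WT after stimulation. Gli2R Tg and WT cells overlapped in Ptch1 level in both conditions. At rest, the probe set 1428853_at read 13.59, 13.60 and 13.28 in Gli2A Tg cells, 10.60, 10.26 and 10.34 in Gli2R Tg cells and 10.24, 10.44 and 10.44 in WT cells. Every Gli2A Tg array lay more than 2 units above every array of the other genotypes, and the Gli2R Tg and WT arrays overlapped. As deposited intensities, these were 11887, 11060 and 9447 in Gli2A Tg cells against 1272, 1419 and 1409 in WT cells. After stimulation, the same probe set read 12.05, 12.27 and 12.48 in Gli2A Tg cells, 10.08, 10.23 and 9.96 in Gli2R Tg cells and 10.24, 9.95 and 10.25 in WT cells. The Gli2A Tg arrays were again all above the rest, with Gli2R Tg and WT overlapping.

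**Figure D1:**
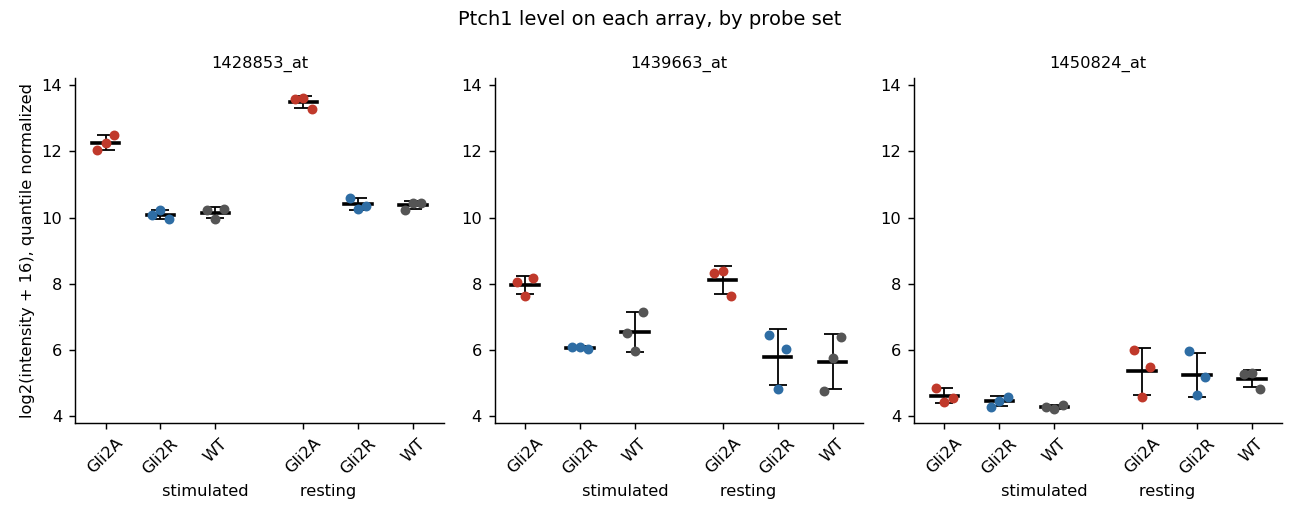
Level of Ptch1 on each array (y axis, log2 of intensity plus 16, quantile normalized) for its 3 probe sets, with stimulated groups left of resting ones. Points are arrays, the thick bar is the group mean and the error bar is 1 SD (n = 3). On 1428853_at and 1439663_at the Gli2A Tg points lie above those of Gli2R Tg and WT in both conditions, while all points of 1450824_at lie low on the scale.

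In resting cells the Gli2A Tg minus WT difference of 1428853_at was 3.12 ± 0.16 (SE, 95% interval 2.77 to 3.46, adjusted p = 2.14e-07 by limma), and against Gli2R Tg it was 3.09 ± 0.16 (adjusted p = 2.39e-07). In stimulated cells the differences were 2.12 ± 0.16 against WT (interval 1.78 to 2.46, adjusted p = 4.87e-05) and 2.18 ± 0.16 against Gli2R Tg (adjusted p = 3.37e-05). In each of these 4 comparisons this probe set had the lowest p of all 34945, and it ranked between 6 and 12 by size of increase. The value of Gli2R Tg minus WT was 0.02 at rest (interval -0.32 to 0.37, adjusted p = 0.988) and -0.06 after stimulation (interval -0.40 to 0.29, adjusted p = 0.959), so that a change beyond about 0.4 in either direction lay outside the interval. The comparisons with WT and with Gli2R Tg share the Gli2A Tg arrays. All Gli2A Tg arrays had a female pattern, and the single female resting WT array read 10.44. With sex as a covariate the resting difference from WT was 2.98. With the mean of the myeloid markers as a covariate, an alternative chosen after the data were seen, it was 3.20 at rest and 2.29 in stimulated cells. The stimulated calls did not hold when only the arrays of the compared groups were fitted, at an adjusted p of 0.12 against WT and 0.198 against Gli2R Tg, with 2.12 and 2.18 as before. With the mean of the Ptch1 probe sets, the stimulated difference from WT was 1.29 (adjusted p = 0.0667).

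The other Ptch1 probe sets differed from this one. On 1439663_at, resting levels were 8.32, 8.38 and 7.63 in Gli2A Tg cells, 6.46, 4.83 and 6.05 in Gli2R Tg cells and 4.77, 5.76 and 6.41 in WT cells. The Gli2A Tg arrays stood above all others, and the remaining genotypes overlapped over a wide range. The difference from WT was 2.47 ± 0.44 (adjusted p = 0.0228) and that from Gli2R Tg 2.33 ± 0.44 (adjusted p = 0.0143). Without replicate 1 or 2 of the resting WT group, or replicate 1 or 2 of the resting Gli2A Tg group, the adjusted p against WT moved to between 0.0618 and 0.0824, with differences of 2.01, 2.51, 2.35 and 2.32. Without resting Gli2R Tg replicate 2, the difference from Gli2R Tg was 1.85 (adjusted p = 0.0671). In stimulated cells the levels were 8.04, 7.65 and 8.17 in Gli2A Tg cells, 6.09, 6.10 and 6.04 in Gli2R Tg cells and 6.51, 5.96 and 7.15 in WT cells. The Gli2A Tg arrays again lay above all others, but the differences of 1.88 from Gli2R Tg (adjusted p = 0.117) and 1.41 from WT (adjusted p = 0.213) missed the threshold. The probe set 1450824_at had group means of 4.29 to 5.36 and no genotype difference past the threshold.

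Stimulation lowered Ptch1 in Gli2A Tg cells on its brightest probe set, and the other probe sets did not pass. On 1428853_at the Gli2A Tg arrays averaged 12.26 ± 0.22 after stimulation and 13.49 ± 0.19 at rest (SD, n = 3 each), a difference of -1.23 ± 0.16 (2.34-fold lower, adjusted p = 1.73e-05). All stimulated arrays lay below all resting arrays. The ratio of 3′ to 5′ actin signal, a sign of RNA quality, was 1.82, 3.0 and 1.77 on the stimulated Gli2A Tg arrays and 1.26 to 1.71 on the 15 others, so that it was highest in this group. Its part in the result was not tested, and without stimulated Gli2A Tg replicate 2, the array at 3.0, the difference was -1.23 (adjusted p = 0.000107) and that between stimulated Gli2A Tg and WT cells 2.11 (adjusted p = 0.000705). The difference was -0.31 in Gli2R Tg cells (10.09 stimulated, 10.40 resting, adjusted p = 0.146) and -0.23 in WT cells (10.14 stimulated, 10.37 resting, adjusted p = 0.293). With the deposited scaling alone the Gli2R Tg value was -0.46 (adjusted p = 0.0342). On 1439663_at the stimulated minus resting difference was -0.16 in Gli2A Tg (adjusted p = 0.816), 0.30 in Gli2R Tg (adjusted p = 0.64) and 0.90 in WT cells (adjusted p = 0.121), and without resting WT replicate 3 the WT value was 1.27 (adjusted p = 0.0395). The probe sets thus disagree about Ptch1 and stimulation. On the dim 1450824_at the difference was -0.74, -0.81 and -0.86 in Gli2A Tg, Gli2R Tg and WT cells, with adjusted p-values of 0.0908, 0.0648 and 0.0514. These passed in 1, 5 and 8 of the alternative settings that kept this probe set. Over all probe sets, 0.0172% were called for a stimulation effect that differed between Gli2A Tg and WT cells or between Gli2R Tg and WT cells, and 0.1% between Gli2A Tg and Gli2R Tg cells, and no member was among them. At an unadjusted p under 0.05, limma gave 4, 4 and 3 of 24 members in these 3 comparisons, where 9.64%, 8.36% and 9.86% of all probe sets passed. For Ptch1, this test of the difference between genotypes gave -1.0 ± 0.23 for Gli2A Tg against WT (adjusted p = 0.175) and -0.91 ± 0.23 for Gli2A Tg against Gli2R Tg (adjusted p = 0.178), so that neither passed over all probe sets. Under eBayes with trend and robust options, the difference from WT had an adjusted p of 0.0412. The order of the 6 group means on this probe set was resting Gli2A Tg, stimulated Gli2A Tg, resting Gli2R Tg, resting WT, stimulated WT and stimulated Gli2R Tg. The first and second stood apart from each other and from the remaining groups. Among the last 4, neighbours did not differ beyond their spread.

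The genes whose levels were most like those of Ptch1 were chosen by Pearson correlation over the 18 arrays with probe set 1428853_at, among 9027 genes with an SD of at least 0.5. The 18 arrays share their groups, so that a correlation mainly reflects the Gli2A Tg arrays, and it is given as a description. Slc27a2 came first (r = 0.945, Spearman rho 0.692), followed by Tgfb3, a transforming growth factor (r = 0.898, rho 0.793), and Fam81a (r = 0.897, rho 0.677). Gtf2ird1, Prr29, Fxyd7, Reck, Sox4, Pmepa1 and Slco4a1 had r between 0.856 and 0.886. Slc27a2 averaged 6.56 in stimulated Gli2A Tg, 4.70 in stimulated Gli2R Tg and 4.89 in stimulated WT cells, and at rest 8.45 in Gli2A Tg, 4.47 in Gli2R Tg and 4.87 in WT cells. It was near the bottom of the scale wherever the activator transgene was absent. Sox4, a transcription factor, averaged 11.05, 10.12 and 9.82 in the same stimulated groups and 12.93, 10.73 and 11.19 in the resting ones. Over the 12 arrays without the Gli2A transgene, r with Ptch1 was 0.17 for Slc27a2, 0.37 for Tgfb3 and 0.74 for Sox4, and it lay between -0.68 and 0.56 for the other 7. Of 8 promoter windows of 7 of these genes, 2 held the Gli consensus with 1 mismatch, those of Slc27a2 and Prr29. Among all promoter windows, 6.74% held a match with at most 1 mismatch, and 8 windows are too few to compare with that share.

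**Figure D2:**
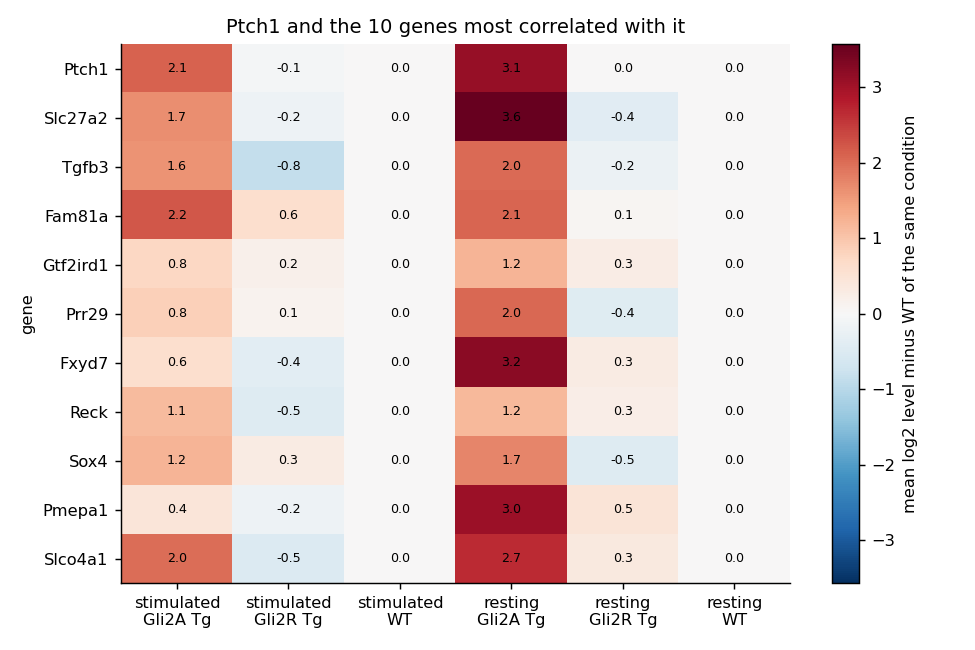
Mean level minus that of WT cells in the same condition (colour and printed value, log2) for Ptch1 and the 10 genes whose levels correlated most with it, by group. The Gli2A Tg columns are positive for every gene, from 0.4 for Pmepa1 after stimulation to 3.6 for Slc27a2 at rest. This follows largely from choosing the genes by likeness to Ptch1 on the same arrays, and the WT columns are 0 by construction.

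Among the other 9 genes, no probe set differed between genotypes past the threshold. In resting cells, Gli2A Tg against WT called 2 of 24 probe sets, both of Ptch1, where 0.381% of all probe sets were called, and Gli2R Tg against WT called 0 of 24, with 0.02% of all called. Gli2A Tg against Gli2R Tg called the same 2 Ptch1 probe sets at rest, with 1.79% of all called. In stimulated cells, Gli2A Tg called 1 of 24 against WT, with 0.14% of all called, and 1 of 24 against Gli2R Tg, with 0.129%. Gli2R Tg against WT called 0 of 24 there, with 0.109% of all called. At an unadjusted p under 0.05, limma gave 2 of 24 members for resting Gli2A Tg against WT, 3 for resting Gli2R Tg against WT and 6 for resting Gli2A Tg against Gli2R Tg, where 9.88%, 9.04% and 15.9% of all probe sets passed. In stimulated cells the same comparisons gave 6, 3 and 8 of 24, where 11.6%, 9.24% and 8.67% of all passed. Groups did not overlap in 2 and 6 of 24 probe sets for resting Gli2A Tg and Gli2R Tg against WT, where 15% and 16.4% of all probe sets did not. In stimulated cells this held for 7 and 3 of 24, with 18% and 17.3% of all. The median difference of the members lay between -0.04 and 0.14 in these comparisons with WT, and that of all probe sets between -0.01 and 0.01.

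**Figure D3:**
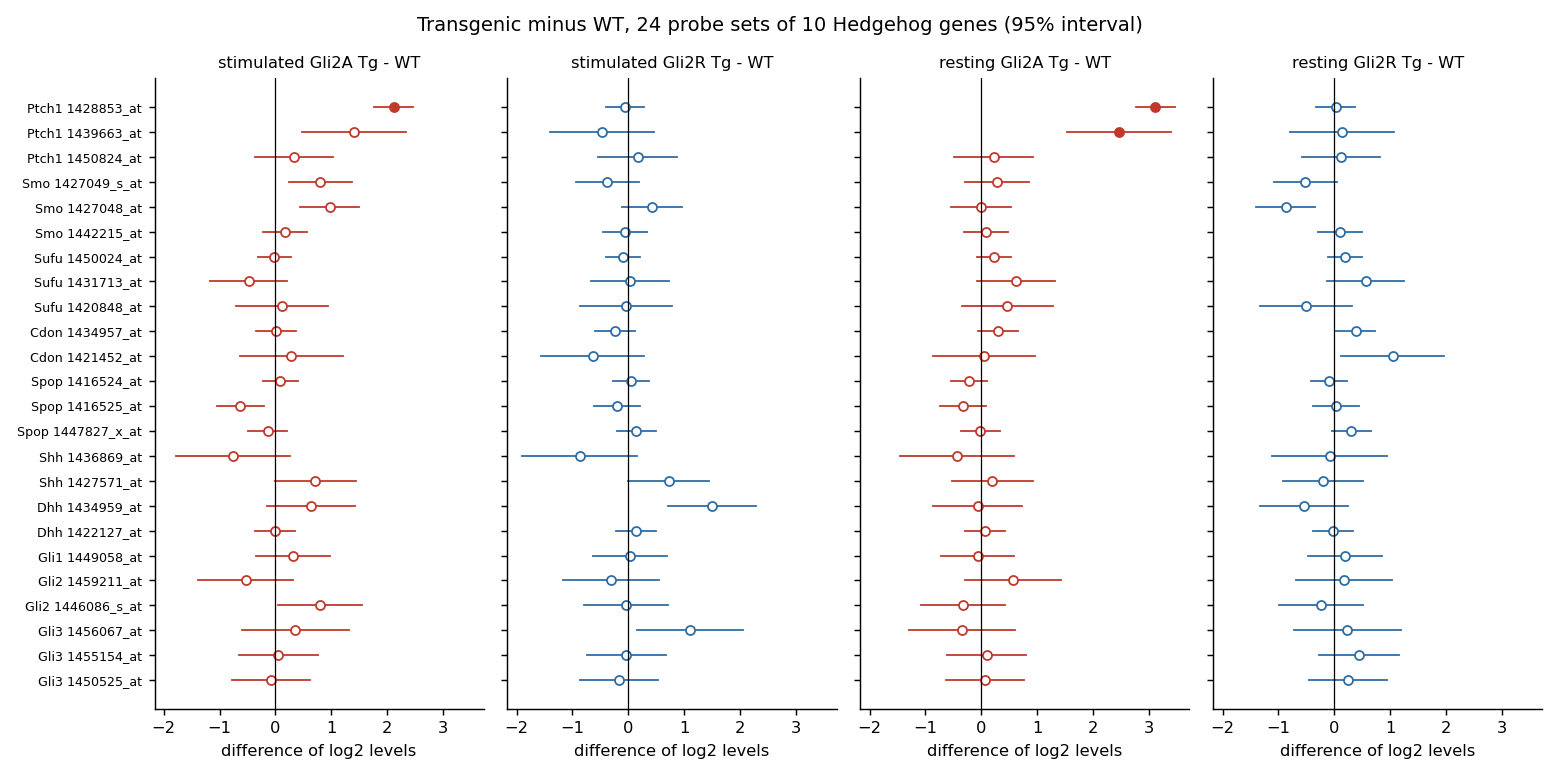
Transgenic minus WT difference in log2 level (x axis) for the 24 probe sets (y axis) in stimulated cells (left) and resting cells (right), with 95% intervals. Filled points passed an adjusted p of 0.05, and these are Ptch1 probe sets in the Gli2A Tg panels only, at 2.12, 3.12 and 2.47.

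Smo, the signal transducer downstream of Ptch1, had its highest group means in stimulated Gli2A Tg cells, and the differences from the other genotypes missed the threshold. On 1427048_at the stimulated arrays read 8.04, 7.97 and 8.16 in Gli2A Tg cells, 7.83, 7.76 and 6.93 in Gli2R Tg cells and 7.24, 7.04 and 6.98 in WT cells. All Gli2A Tg arrays lay above all Gli2R Tg and WT arrays. The difference from WT was 0.97 ± 0.25 (interval 0.44 to 1.50, adjusted p = 0.14), and that of 1427049_s_at was 0.80 ± 0.27 (interval 0.24 to 1.37, adjusted p = 0.244). At rest, 1427048_at read 6.92, 7.47 and 7.51 in Gli2A Tg cells, 6.06, 6.42 and 6.81 in Gli2R Tg cells and 7.42, 7.04 and 7.45 in WT cells, so that the Gli2R Tg arrays lay below all others. The resting Gli2R Tg minus WT difference was -0.87 ± 0.25 (interval -1.40 to -0.34, adjusted p = 0.271). Resting Gli2A Tg cells differed from WT cells by 0.00 (interval -0.54 to 0.53, adjusted p = 1). With only probe sets above the median level tested, 1427048_at in resting Gli2A Tg against Gli2R Tg (0.87) and 1427049_s_at in stimulated Gli2A Tg against Gli2R Tg (1.18) had adjusted p-values of 0.0361 and 0.0415. The dim probe set 1442215_at stayed between 4.10 and 4.96 on every array.

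Stimulation changed Spop, Cdon and Shh in all 3 genotypes, in the direction of less Spop and more Cdon and Shh, on some of the probe sets of each gene. In Gli2A Tg cells 4 of 24 probe sets rose and 3 fell, where 40.4% of all probe sets were called, 20.7% as higher and 19.7% as lower. In Gli2R Tg cells 4 rose and 2 fell, where 39.7% of all were called, 20% as higher and 19.7% as lower. In WT cells 2 rose and 2 fell, where 39.4% of all were called, 20% as higher and 19.3% as lower. The members' share of calls was below the background in each genotype. The macrophage and myeloid markers fell with stimulation too, 11 of 12 in each genotype, with median differences of -4.62 in Gli2A Tg, -5.44 in Gli2R Tg and -5.64 in WT cells. Of the CD4 T cell markers, 6, 7 and 7 of 8 fell in these genotypes. With the myeloid marker mean as a covariate, 0 members and 10, 4 and 5 of all 34945 probe sets passed in Gli2A Tg, Gli2R Tg and WT cells, since markers and condition nearly coincide. The part of other cells in the stimulation effects therefore cannot be told apart from stimulation.

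**Figure D4:**
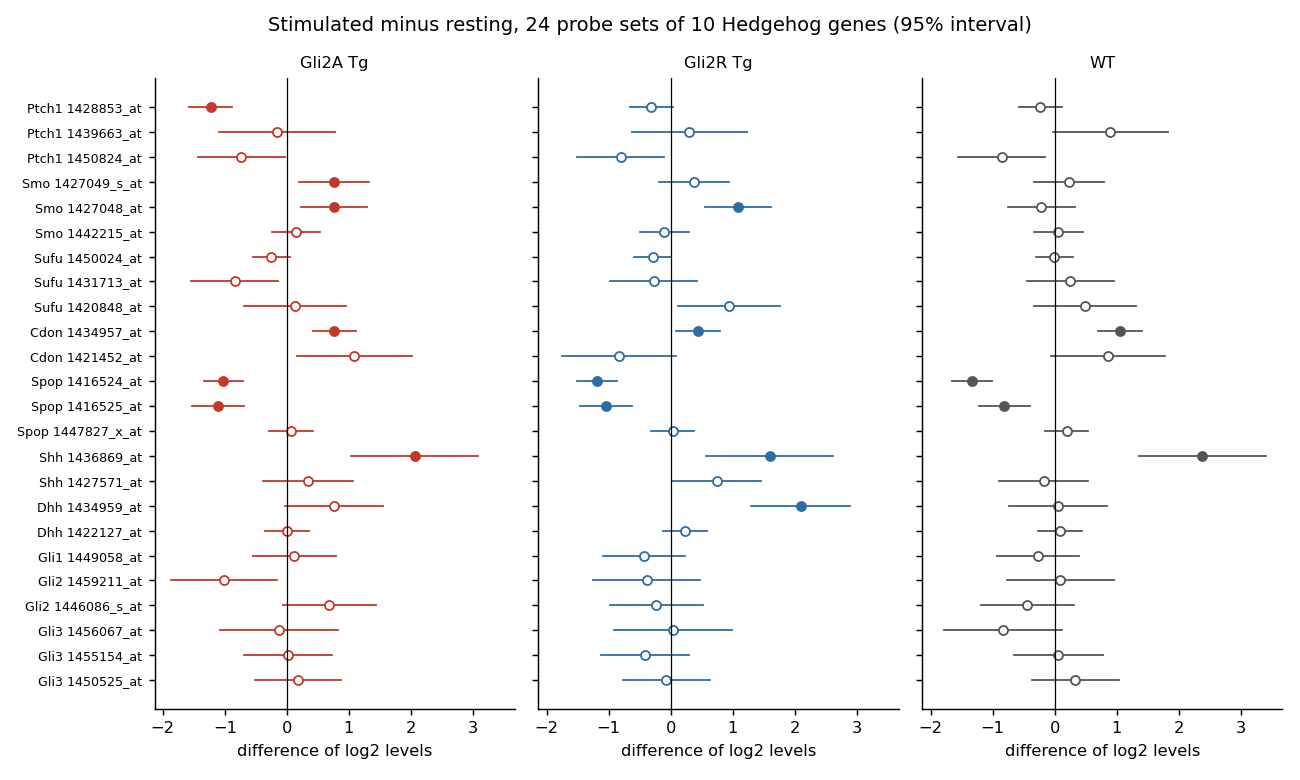
Stimulated minus resting difference in log2 level (x axis) for the 24 probe sets (y axis) in Gli2A Tg, Gli2R Tg and WT cells, with 95% intervals. Filled points passed an adjusted p of 0.05; 2 Spop probe sets are negative and 1 probe set each of Cdon and Shh is positive in every panel, and Ptch1 1428853_at is filled in Gli2A Tg cells alone.

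Among the ligands, Shh rose on 1436869_at. Stimulated cells read 7.39, 6.14 and 7.62 in Gli2A Tg, 7.52, 7.53 and 5.75 in Gli2R Tg and 7.65, 8.03 and 7.73 in WT. Resting cells read 5.28, 4.42 and 5.27 in Gli2A Tg, 4.64, 5.76 and 5.62 in Gli2R Tg and 5.54, 5.69 and 5.04 in WT. The conditions were apart in Gli2A Tg and WT cells, and in Gli2R Tg cells the lowest stimulated array fell just below the highest resting one. The differences were 2.06 ± 0.48 in Gli2A Tg (adjusted p = 0.00266), 1.59 ± 0.48 in Gli2R Tg (adjusted p = 0.0149) and 2.38 ± 0.48 in WT cells (5.21-fold, adjusted p = 0.000897). In Gli2R Tg cells this call did not hold without resting replicate 1 (1.23, adjusted p = 0.0786), stimulated replicate 1 (1.31, adjusted p = 0.0707) or stimulated replicate 2 (1.30, adjusted p = 0.0703), nor with only the arrays of the compared groups (1.59, adjusted p = 0.0702). The second Shh probe set, 1427571_at, had group means of 4.44 to 5.18 and passed in no genotype in the main fit. In Gli2R Tg cells its difference was 0.74 (adjusted p = 0.0977), without overlap between conditions. This passed with median centring (0.95, adjusted p = 0.0322) and the deposited scaling (0.90, adjusted p = 0.0427). It also passed without stimulated Gli2A Tg replicate 1 (0.75, adjusted p = 0.0481). Gli2A Tg cells averaged 5.18 stimulated and 4.84 resting on 1427571_at. The WT difference on 1427571_at was -0.18 (interval -0.90 to 0.54), so that the probe sets disagree about Shh in WT cells.

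Dhh, the other ligand among the members, rose with stimulation in Gli2R Tg cells on 1434959_at. The stimulated arrays read 5.55, 4.96 and 6.06 in Gli2A Tg cells, 6.85, 5.46 and 6.84 in Gli2R Tg cells and 4.51, 5.11 and 5.02 in WT cells. The resting arrays read 4.69, 4.35 and 5.25 in Gli2A Tg cells, 4.21, 4.35 and 4.30 in Gli2R Tg cells and 5.26, 4.77 and 4.46 in WT cells. In Gli2R Tg cells every stimulated array was above every resting one, whereas the conditions overlapped in the other genotypes. The difference was 2.09 ± 0.37 in Gli2R Tg cells (adjusted p = 0.000291), against 0.76 in Gli2A Tg (adjusted p = 0.122) and 0.05 in WT cells (adjusted p = 0.934). With median centring the Gli2A Tg value was 0.98 and passed (adjusted p = 0.0343). The resting Gli2R Tg arrays lay at the bottom of the scale, so that the size of the difference depends on the number added before the logarithm: it was 3.89 with 1 added and 1.00 with 64 added, and passed in both cases. The Gli2R Tg effect exceeded the WT effect by 2.04 ± 0.53 (adjusted p = 0.268), which missed the threshold. Between stimulated groups, Gli2R Tg minus WT was 1.50 ± 0.37 (adjusted p = 0.18), and without stimulated Gli2R Tg replicate 2 it was 1.97 (adjusted p = 0.0428). The stimulated Gli2R Tg arrays at 6.85 and 6.84 had the male pattern and the one at 5.46 the female pattern. With sex as a covariate the stimulation difference in Gli2R Tg cells was 1.58 (adjusted p = 0.00255). The probe set 1422127_at stayed between 4.15 and 4.75 on all arrays.

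Cdon, a cell surface co-receptor for Hedgehog ligands, rose with stimulation on 1434957_at in every genotype. Stimulated cells read 9.42, 9.78 and 9.51 in Gli2A Tg, 9.52, 9.36 and 9.08 in Gli2R Tg and 9.72, 9.57 and 9.38 in WT. Resting cells read 8.95, 8.87 and 8.59 in Gli2A Tg, 8.90, 8.80 and 8.96 in Gli2R Tg and 8.68, 8.49 and 8.34 in WT. Stimulated and resting arrays were apart in each genotype. The difference was 0.77 ± 0.16 in Gli2A Tg (adjusted p = 0.0014), 0.43 ± 0.16 in Gli2R Tg (adjusted p = 0.0474) and 1.06 ± 0.16 in WT cells (2.08-fold, adjusted p = 9.32e-05). The Gli2R Tg call lay close to the threshold and was lost in 19 of 31 alternative settings. Leaving out any of the arrays of the 2 groups other than stimulated Gli2R Tg replicate 3 gave 0.33 to 0.48, with adjusted p-values of 0.0623 to 0.183, and the mean of the Cdon probe sets reversed it (-0.20, adjusted p = 0.559). With the deposited scaling alone, the Gli2A Tg value was 0.44 (adjusted p = 0.053). The dimmer probe set 1421452_at passed in no genotype in the main fit, with 1.09 in Gli2A Tg (adjusted p = 0.0574), -0.83 in Gli2R Tg (adjusted p = 0.146) and 0.85 in WT cells (adjusted p = 0.137). The Gli2A Tg value passed with median centring, log2(value + 64) and the compared arrays alone (adjusted p = 0.0243, 0.0426 and 0.0207). It also passed without stimulated WT replicate 2, Gli2A Tg replicate 3 or Gli2R Tg replicate 2 (adjusted p = 0.0229, 0.0487 and 0.0326). Without stimulated WT replicate 2 the WT value was 1.38 (adjusted p = 0.0136).

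Smo rose with stimulation in the cells of both transgenic lines on 1427048_at. On 1427048_at the stimulated minus resting difference was 0.76 ± 0.25 in Gli2A Tg cells (adjusted p = 0.0242) and 1.08 ± 0.25 in Gli2R Tg cells (2.11-fold, adjusted p = 0.0026), with no overlap between conditions. In WT cells it was -0.21 ± 0.25 (adjusted p = 0.549). The effect in transgenic cells was not shown to differ from that in WT cells, with adjusted p-values of 0.399 for Gli2A Tg and 0.304 for Gli2R Tg. On 1427049_s_at only Gli2A Tg cells passed (0.75 ± 0.27, adjusted p = 0.0331), with stimulated values of 8.26, 8.90 and 8.38 and resting values of 7.46, 7.41 and 8.41, which overlap. The stimulated and resting means of this probe set were 7.33 and 6.96 in Gli2R Tg and 7.71 and 7.48 in WT cells. The Gli2A Tg calls were lost with median centring (0.50 on 1427048_at and 0.51 on 1427049_s_at) and with the deposited scaling (0.32 and 0.33). On 1427048_at they were also lost without resting Gli2A Tg replicate 1 (0.56, adjusted p = 0.115) or stimulated Gli2A Tg replicate 1 (0.77, adjusted p = 0.0534) or 3 (0.71, adjusted p = 0.071). On 1427049_s_at, leaving out resting replicate 1 or 2 or stimulated replicate 2 gave 0.61, 0.58 and 0.56, with adjusted p-values of 0.127, 0.137 and 0.144, and the call was also lost with the compared arrays alone (0.75, adjusted p = 0.119).

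Spop, an adaptor of a ubiquitin ligase that acts on Gli proteins, fell with stimulation in all 3 genotypes on 2 of its 3 probe sets. On 1416524_at, stimulated cells read 10.50, 10.51 and 10.69 in Gli2A Tg, 10.43, 10.57 and 10.57 in Gli2R Tg and 10.53, 10.50 and 10.40 in WT. Resting cells read 11.38, 11.61 and 11.77 in Gli2A Tg, 11.86, 11.77 and 11.50 in Gli2R Tg and 11.84, 11.99 and 11.60 in WT. All stimulated arrays lay well below all resting arrays, whatever the genotype. The differences were -1.02 ± 0.15 in Gli2A Tg (2.03-fold lower, adjusted p = 5.05e-05), -1.18 ± 0.15 in Gli2R Tg (2.27-fold lower, adjusted p = 1.17e-05) and -1.33 ± 0.15 in WT cells (2.52-fold lower, adjusted p = 3.8e-06). On 1416525_at they were -1.11, -1.04 and -0.81, with adjusted p-values of 0.000262, 0.000476 and 0.00355. The third probe set, 1447827_x_at, ranged from 8.03 to 8.77 and gave 0.07, 0.03 and 0.19 in the same order, which did not pass. In stimulated cells, 1416525_at read 8.50, 8.17 and 8.69 in Gli2A Tg against 9.19, 8.78 and 9.27 in WT cells, without overlap, and this difference of -0.63 ± 0.20 missed the threshold (adjusted p = 0.218).

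Sufu, the cytoplasmic inhibitor of Gli proteins, passed in no comparison in the main fit of all arrays. On 1450024_at all 18 arrays lay between 9.21 and 9.72, the narrowest spread among the members' brightest probe sets (SD 0.17 over 18 arrays). The stimulated minus resting differences were -0.25 in Gli2A Tg, -0.29 in Gli2R Tg and -0.01 in WT cells, with adjusted p-values of 0.177, 0.119 and 0.974. The Gli2A Tg and Gli2R Tg values were larger with the deposited scaling, at -0.54 (adjusted p = 0.00765) and -0.57 (adjusted p = 0.0055). With median centring the Gli2R Tg value was -0.53 (adjusted p = 0.0193). On 1431713_at, stimulated Gli2A Tg cells read 5.99, 5.51 and 6.11 against 6.96, 6.24 and 6.94 in resting Gli2A Tg cells, which did not overlap, and the difference of -0.84 just missed the threshold (adjusted p = 0.0512). The third probe set, 1420848_at, went up in Gli2R Tg cells. It read 5.79, 5.27 and 5.93 in stimulated Gli2R Tg cells against 5.21, 4.54 and 4.41 in resting Gli2R Tg cells, without overlap, and the difference of 0.94 missed the threshold (adjusted p = 0.0647). That difference passed with median centring (1.14, adjusted p = 0.0233), with the deposited scaling (1.09, adjusted p = 0.0347) and with the compared arrays alone (0.94, adjusted p = 0.0406). It also passed without resting WT replicate 1 or 2 or resting Gli2R Tg replicate 1 (adjusted p = 0.0319, 0.0409 and 0.039). On 1431713_at the Gli2R Tg means were 6.38 stimulated and 6.66 resting, so that the probe sets disagree about Sufu in Gli2R Tg cells. In Gli2A Tg and WT cells the 1420848_at difference was 0.13 and 0.48, with adjusted p-values of 0.826 and 0.36.

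**Figure D5:**
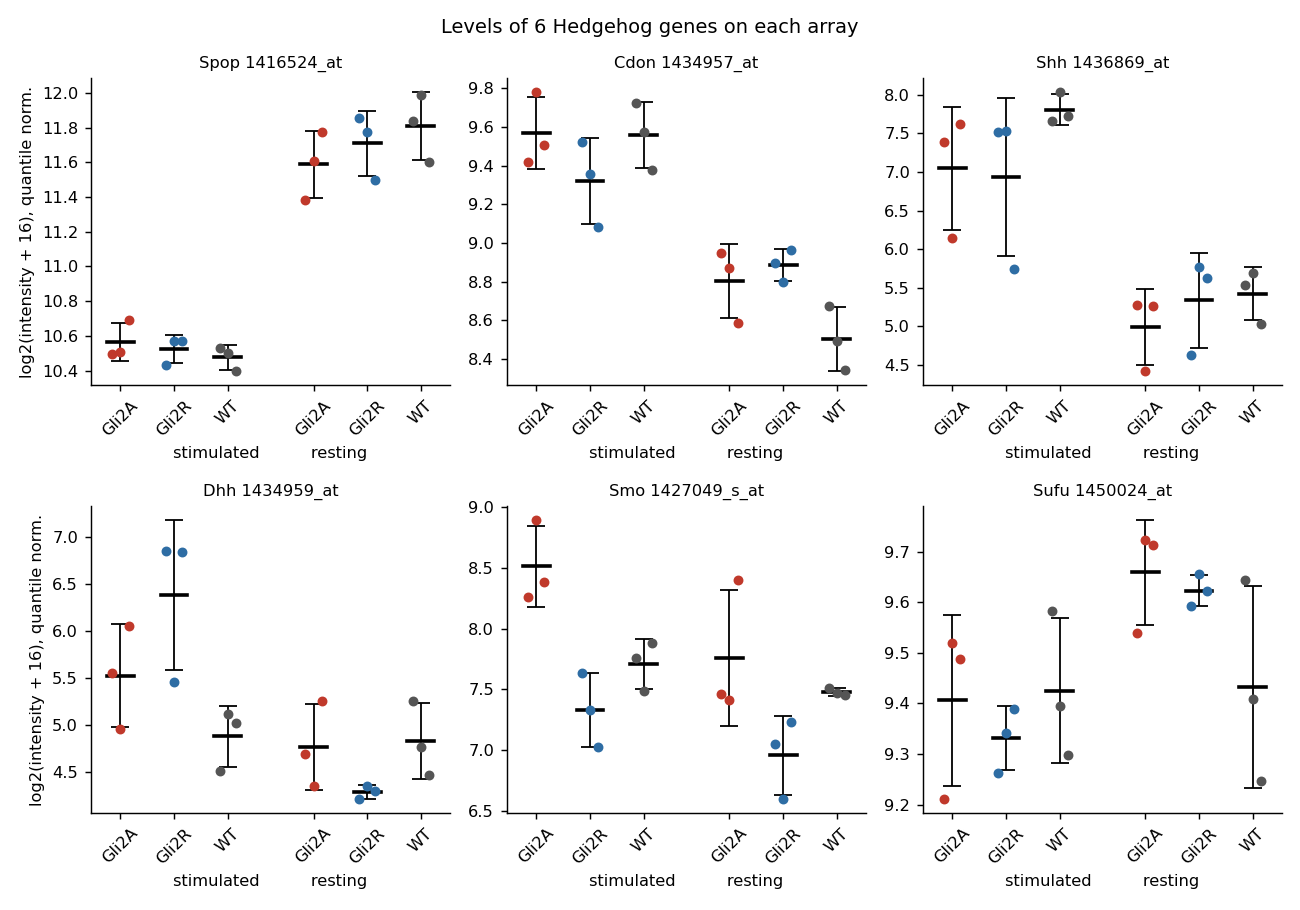
Levels of Spop, Cdon, Shh, Dhh, Smo and Sufu on each array (y axis, log2 of intensity plus 16, quantile normalized, with its own range and not starting at 0 in each panel), the brightest probe set of each gene, by genotype and condition. Points are arrays, the thick bar is the mean and the error bar 1 SD (n = 3); Spop is lower and Cdon higher in all stimulated groups, and Dhh 1434959_at reaches 6.85 in stimulated Gli2R Tg cells.

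The Gli transcription factors passed in no comparison in the main fit of all arrays, and Gli2 was dim. Gli1 on 1449058_at, which Hedgehog signals commonly induce, read 6.52, 6.27 and 6.04 in stimulated Gli2A Tg cells against 5.66, 6.04 and 6.16 in stimulated WT cells. At rest it read 5.56, 6.41 and 6.49 in Gli2A Tg cells against 5.79, 6.53 and 6.35 in WT cells, and the genotypes overlapped in both conditions. The Gli2A Tg minus WT difference of Gli1 was 0.32 (interval -0.34 to 0.98) after stimulation and -0.07 (interval -0.73 to 0.59) at rest. Gli2 had probe set means of 4.85 on 1459211_at and 4.64 on 1446086_s_at, both below the lower quartile of 5.22. On 1459211_at, resting Gli2A Tg cells read 5.31, 6.04 and 4.80 against 4.57, 4.43 and 5.46 in resting WT cells. On 1446086_s_at, stimulated Gli2A Tg cells read 4.34, 5.15 and 6.08 against 4.71, 4.16 and 4.29 in stimulated WT cells, a difference of 0.80 (adjusted p = 0.398) with overlap. Between stimulated and resting Gli2A Tg cells, 1459211_at read 4.17, 4.70 and 4.25 against 5.31, 6.04 and 4.80, without overlap, and the difference of -1.01 missed the threshold (adjusted p = 0.058). It passed with array weights (-1.22, adjusted p = 0.0326) and on leaving out 1 of 5 arrays (-1.30 to -1.01, adjusted p between 0.0287 and 0.0474). The other Gli2 probe set moved the opposite way there (0.68, adjusted p = 0.143), and passed with median centring (0.93, adjusted p = 0.039) and without stimulated Gli2A Tg replicate 1 (1.11, adjusted p = 0.0132). Since the extent of Gli2 in the transgenes is not labelled, the Gli2 values check nothing about the labels. Gli3 on 1456067_at read 6.70, 5.62 and 6.36 in stimulated Gli2R Tg cells against 4.74, 4.86 and 5.77 in stimulated WT cells, with overlap (1.10, adjusted p = 0.453). Its other probe sets stayed between 4.12 and 5.56.

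Genes around the members gave no genotype call either. Of 44 further Hedgehog components 38 were measured, and each was read from its brightest probe set. In the 6 genotype comparisons 0 of 38 passed limma's test, where 0.02% to 1.79% of all probe sets were called. At an unadjusted p under 0.05, 1 to 4 of 38 passed, where 8.67% to 15.9% of all probe sets did. Of 26 textbook Gli target genes 23 were measured. In the same comparisons 0 of 23 passed, with 1 to 5 at an unadjusted p under 0.05, against the same shares. Hhip, a ligand-binding inhibitor and Gli target that was picked out after its values were seen, averaged 4.43 in resting Gli2A Tg and 4.52 in resting WT cells (-0.10, adjusted p = 0.966). Stimulation moved more of them. Among the 38 components, 10 rose and 9 fell in Gli2A Tg cells, 6 rose and 8 fell in Gli2R Tg cells, and 5 rose and 7 fell in WT cells. Over all probe sets, and not only the brightest of each gene, 40.4%, 39.7% and 39.4% were called. The kinase Gsk3b fell in all 3 genotypes (-2.99, -2.89 and -2.89 in the same order, on its brightest probe set), and so did the beta-arrestin Arrb2 (-2.90, -3.04 and -2.82). The other Gsk3b probe sets gave -1.12 to 0.31 in WT cells. The ciliary protein Ift172 fell too (-2.11, -2.03 and -1.64), and Tulp3, a ciliary trafficking protein, rose by 1.85 in Gli2A Tg cells. The median over the components was 0.01 in Gli2A Tg, 0.02 in Gli2R Tg and 0.04 in WT cells, against 0.04, 0.02 and 0.03 over all probe sets. Among the Gli targets, 3 rose and 4 fell in Gli2A Tg, 2 rose and 4 fell in Gli2R Tg, and 1 rose and 4 fell in WT cells, of 23 measured, against the same 40.4%, 39.7% and 39.4% of all probe sets. The cyclin Ccnd2 rose in all 3 (1.22, 1.36 and 1.20), whereas the cyclin Ccnd1 fell (-2.35, -0.97 and -1.70).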

How the data were processed

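Gene expression was measured on 18 arrays. The deposited table holds linear intensity values for 45101 probe sets, produced with affy per the submitters' processing notes (version not given in the sources used here). The 2% trimmed mean of every array was 500 when checked. Genes were named from the platform annotation: 34945 probe sets had 1 symbol, 932 several, 9160 none and 64 were controls. Entrez numbers matched the RefSeq gene table for 34741, and 0 were renamed.

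Values were transformed as log2 of intensity plus 16, and quantile normalized. Limma 3.58.1 (R 4.3.3) estimated the 6 group means in a single fit of 18 arrays with 12 residual degrees of freedom. The p-values of each of 12 comparisons received Benjamini-Hochberg adjustment over 34945 probe sets, with calls under 0.05. The script was tested on simulated data. The members and lists were chosen with earlier results of these data known. All member probe sets were described, up to 4 called genes with the largest differences were named per list and comparison, and the 10 genes most correlated with Ptch1 were named. Deviations of same-numbered replicates correlated at 0.10 or less, so their numbers were not taken to pair samples. Probe sets with several symbols or none were not analysed here, nor were detection calls. Alternatives were median centring, deposited scaling, log2 of the value plus 1 or 64, a filter at the median level, other probe set summaries, array weights, a trended and robust eBayes, the compared arrays alone, a replicate block, sex as a covariate and leaving out each array. The myeloid covariate was added after seeing the data.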

Additional observations from a re-analysis of the deposited data

Results flagged for a closer look

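The stimulation effect on the dimmer Cdon probe set, 1421452_at, ran in opposite directions in the transgenic lines. Stimulated Gli2A Tg cells read 6.02, 6.64 and 5.71, all above the 5.01, 4.84 and 5.26 of resting Gli2A Tg cells. Stimulated Gli2R Tg cells read 5.63, 4.30 and 5.67, all below the 6.33, 5.83 and 5.95 of resting Gli2R Tg cells. The effect in Gli2A Tg cells minus that in Gli2R Tg cells was 1.92 ± 0.61, with an adjusted p of 0.301 by limma over all probe sets, which misses the threshold. The brighter Cdon probe set, 1434957_at, rose in both lines.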

How the results depend on the processing

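The 23 member calls were refitted under 31 settings, of which 18 each left out 1 array. Some calls could be read in only 29 or 30 settings, since the others dropped their probe set. The Ptch1 1428853_at calls in resting cells held in all 31 settings, with Gli2A Tg minus WT between 1.93 and 3.23. Against WT, the count of called members in resting Gli2A Tg cells was 1 instead of 2 with log2(value + 1), the brightest or the mean probe set of a gene, the compared arrays alone, sex or the myeloid markers as a covariate, and 1 to 2 on leaving out an array. Against Gli2R Tg it was 1 instead of 2 under these settings except the sex covariate, and 1 to 2 on leaving out an array. In stimulated Gli2A Tg cells the count against WT was 0 instead of 1 with the mean probe set or the compared arrays alone, and the count against Gli2R Tg was 2 with log2(value + 64), probe sets above the median level or trend and robust, and 0 with the compared arrays alone. Stimulated Gli2R Tg against WT ranged from 0 to 1 on leaving out an array. Stimulation counts on leaving out an array were 5 to 9 in Gli2A Tg, 4 to 7 in Gli2R Tg and 4 to 6 in WT cells, against 7, 6 and 4. The mean probe set gave 3 in Gli2R Tg cells, and the myeloid covariate gave 0 in each genotype. The difference of the Gli2A Tg and WT stimulation effects had 1 call with trend and robust. With the myeloid covariate, which nearly coincides with stimulation, signs turned for Shh 1436869_at (-2.44 in Gli2A Tg, -3.16 in Gli2R Tg, -2.55 in WT) and Smo 1427048_at (-0.60 in Gli2A Tg, -0.35 in Gli2R Tg), all uncalled, and Cdon 1434957_at in Gli2R Tg cells was -0.20 with the mean probe set. The cause of the other changes was not tested.

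Same-numbered arrays had correlated deviations of -0.06 to 0.10 over 45 pairs, with 1 above 0.1, and 27 of 45 arrays and groups matched best with their own number, where 15 would if numbers were unrelated, a hint from the data and not the design. The fit with the replicate block gave 8, 7 and 5 stimulation calls in Gli2A Tg, Gli2R Tg and WT cells, and 3.12 for Ptch1 in resting Gli2A Tg against WT (adjusted p = 5.65e-06), and it moved no count of members by more than 1.5 times. Over all probe sets, called counts ranged from 6 to 276 around 133 for resting Gli2A Tg against WT, and from 0 to 272 around 49 for stimulated Gli2A Tg against WT. For resting Gli2A Tg against Gli2R Tg they ranged from 26 to 1514 around 626. Median centring moved the median of all probe sets by 0.13 in the stimulation effect of WT cells and 0.11 in that of Gli2A Tg cells. The signal of both Gli2 probe sets, both Dhh probe sets and the second Shh probe set averaged below the lower quartile. So did that of Ptch1 1450824_at, Smo 1442215_at and Gli3 1455154_at and 1450525_at. This limits what these arrays show of all of them.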
